A study of Mus with 15 samples.

Results

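The genes described here are 10 markers of the cells that wrap blood vessels and of the contractile fibroblasts of healing tissue. They are Acta2, Tagln, Cnn1, Myh11, Actg2, Myl9 and Des, which encode proteins of the contractile and filament apparatus, and Rgs5, Cspg4 and Notch3, which mark pericytes and smooth muscle of vessels. Members were taken by symbol from a deposited expression matrix, where all 10 were found among 55471 genes, each in a single entry. All 10 were among the 16051 genes that passed the filter on low counts. Cnn1 passed in 10 of 15 samples, 5 of them controls, and Actg2 passed in 12 samples, 4 of them controls, while the other 8 members passed in all 15.

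Adipose tissue from wild-type C57BL/6 mice with an age label of 7 weeks was studied by RNA sequencing as day 7 fat grafts, day 3 fat grafts and control tissue, with 5 samples in each of the 3 groups. All groups share the strain and the wild-type genotype. The title of the series names a metabolic shift of surviving grafts to glycolysis. The labels do not give the fat depot, the recipient of the graft or whether the samples of a group came from separate animals. The p-values therefore measure only the spread between these samples, which may be technical. Libraries held 20.2 to 32 M estimated counts at day 7, 23.7 to 29.4 M at day 3 and 17.1 to 31.8 M in controls. Mitochondrial transcripts took 2.17 to 2.89%, 2.35 to 4.02% and 9.01 to 14.9% of them. Adipocyte markers checked the label of the tissue, with a summed level of 1093 to 2452 CPM (counts per 1 M counts of the scaled library) in the day 7 grafts, 2118 to 7715 CPM in the day 3 grafts and 16580 to 49500 CPM in the controls.

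Smooth muscle cells of arteries contract through a myosin motor that is switched on by phosphorylation of its light chain and slides along alpha-smooth muscle actin. Pericytes sit on capillaries, and they are recruited by platelet-derived growth factor and kept in place in part by Notch signalling from the endothelium. In wounds, fibroblasts that take up Acta2 and pull on the matrix are called myofibroblasts. They make Acta2 and Tagln without the full set of smooth muscle proteins, of which smooth muscle myosin (Myh11) is the most restricted. The factors MRTF and SRF drive many of these genes when actin is polymerised.

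Levels are given as CPM at scaled library sizes, and changes as log2 fold changes ± SE from a limma-voom fit of all 15 samples. The p-values were adjusted over all 16051 tested genes, and values under 0.05 count as a call. Both comparisons with control tissue use the same 5 control samples. In bulk tissue, fewer cells of a type and less RNA per cell cannot be told apart. Some libraries stood apart from their groups. On the second principal component, which held 10.5% of the variance over all tested genes, day 7 graft 5 was at -9.32 against 19.5 to 28 for the other day 7 grafts. Day 3 graft 1 was at 1.29 against -32.3 to -14.2 for the other day 3 grafts, and control 4 was at -71.3 against 9.42 to 38.9 for the other controls. Control 5 lay nearest to the grafts on the first component, which held 68.2% of the variance, at -69 against -114 to -94.4 for the other controls. Day 7 graft 5 had the lowest level of its group for all 10 members.

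The fitted changes at day 3 against control were negative for all members but Acta2, and most of the contractile members were high at day 7. At day 3 against control Acta2 rose and Myh11, Cspg4 and Des fell, with the other 6 not called. The median log2 change of the members was -0.94, beside a median of -0.01 over all tested genes. Those calls are read against a background in which 30.1% of all tested genes were called higher and 30.2% lower. The 1 higher and 3 lower calls of the 10 members are no larger than that background. In the day 7 grafts against control 6 members rose, which were Acta2, Tagln, Cnn1, Actg2, Myl9 and Notch3, and Cspg4 fell. The median was 1.44, beside 0.03 over all genes. There 32.3% of all genes were called higher and 28.4% lower. Between the graft groups 7 members rose at day 7 against day 3, which were Acta2, Tagln, Cnn1, Actg2, Myl9, Myh11 and Notch3, and 0 fell. The median was 2.50, beside 0.02 over all genes. In that comparison 3.18% of all genes were called higher and 1.71% lower. Leaving out day 3 graft 1 and day 7 graft 5 together, a choice made after seeing the data, gave 9 members higher and 0 lower at day 7 against day 3, 7 higher and 1 lower at day 7 against control, and 1 higher and 5 lower at day 3 against control. In that fit 5.81% of all tested genes were called higher and 3.65% lower at day 7 against day 3, 31.8% and 27% at day 7 against control, and 29.7% and 28.9% at day 3 against control.

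**Figure D1:**
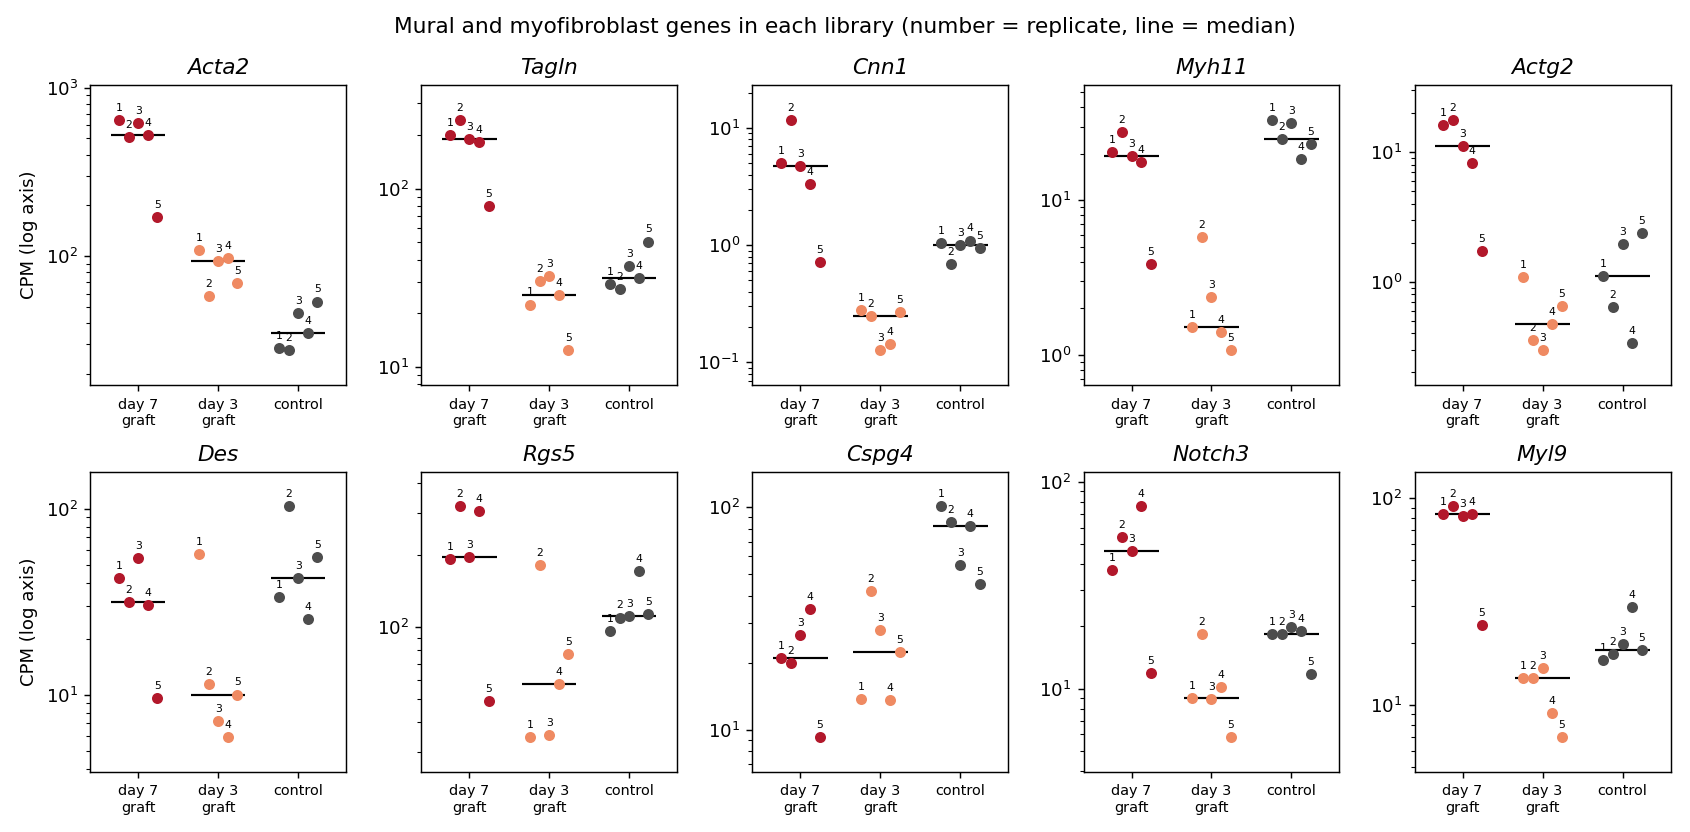
Level of each gene in CPM on a log axis in the 15 libraries, with day 7 grafts, day 3 grafts and controls from left to right in each panel, numbers for the replicate and a line for the group's median. Day 7 graft 5 is the lowest of its group in every panel, and the other 4 day 7 grafts of Acta2, Tagln, Cnn1, Actg2 and Myl9 lie above all libraries of both other groups.

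Acta2, the alpha-smooth muscle actin of vessel walls and myofibroblasts, was the only member that was higher in both graft groups than in control tissue. Acta2 (ENSMUSG00000035783) lies on the minus strand at chr19:34241090-34255590 of the build mm10. It was at 646, 512, 614, 519 and 171 CPM in day 7 grafts 1 to 5 and at 108, 58.1, 94.0, 97.4 and 69.2 CPM in day 3 grafts 1 to 5. Controls 1 to 5 had 28.6, 27.6, 46.2, 35.2 and 53.8 CPM. The 3 groups did not overlap, and the lowest day 7 graft was above the highest day 3 graft. Its mean was 492 ± 189 CPM in the day 7 grafts, 85.4 ± 20.9 CPM in the day 3 grafts and 38.3 ± 11.4 CPM in the controls (SD, n = 5 each). The change was 2.42 ± 0.32 at day 7 against day 3 (adjusted p = 0.00125), 3.59 ± 0.32 at day 7 against control (adjusted p = 5.8e-07) and 1.16 ± 0.29 at day 3 against control (adjusted p = 0.00334). The 3 calls held under all 27 alternatives tried.

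Tagln, which encodes the actin-binding protein transgelin, was high only at the later time. Tagln (ENSMUSG00000032085) lies on the minus strand at chr9:45929619-45936058. Day 7 grafts 1 to 5 had 199, 244, 188, 182 and 79.7 CPM. The day 3 grafts had 22.4, 30.3, 32.3, 25.2 and 12.4 CPM, and the controls had 29.1, 27.4, 36.9, 31.5 and 50.5 CPM. All day 7 grafts were above all other libraries, while the day 3 grafts overlapped the controls. The change was 2.85 ± 0.30 at day 7 against day 3 (adjusted p = 0.00029), 2.28 ± 0.30 at day 7 against control (adjusted p = 1.55e-05) and -0.56 ± 0.30 at day 3 against control (adjusted p = 0.116). The gene overlaps Pcsk7 and the predicted gene Gm48529 on the opposite strand. Pcsk7 had a change of 0.01 ± 0.10 at day 7 against day 3 (adjusted p = 0.968), the kit is a stranded one, and the labels do not say whether strand was used in counting.

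Myl9, the regulatory light chain of smooth muscle myosin, was at 83.9, 91.3, 82.4, 83.8 and 24.2 CPM in day 7 grafts 1 to 5 and at 13.5, 13.5, 15.1, 9.11 and 6.97 CPM in the day 3 grafts. Controls had 16.5, 17.6, 19.7, 29.6 and 18.3 CPM. Myl9 (ENSMUSG00000067818) lies on the plus strand at chr2:156775420-156781658. In CPM every day 3 graft was below every control and below every day 7 graft. In the same unit day 7 graft 5 was the one day 7 library inside the range of the controls. The change was 2.57 ± 0.36 at day 7 against day 3 (adjusted p = 0.00188) and 1.72 ± 0.34 at day 7 against control (adjusted p = 0.000552). Day 3 against control gave -0.85 ± 0.39, which was not called (adjusted p = 0.0693). It was called with day 7 graft 5 left out of the fit (adjusted p = 0.00295).

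Calponin, encoded by Cnn1, is a regulator of the myosin motor that is found in mature smooth muscle. Cnn1 (ENSMUSG00000001349) lies on the plus strand at chr9:22099216-22109630. It was a rare transcript, at 4.98, 11.8, 4.71, 3.31 and 0.715 CPM in the day 7 grafts and at 0.280, 0.249, 0.127, 0.144 and 0.267 CPM in the day 3 grafts. Controls had 1.05, 0.696, 0.994, 1.10 and 0.947 CPM. The day 3 values rest on 3 to 7 counts a library and those of the controls on 12 to 26. In CPM all day 3 grafts were below all controls and all day 7 grafts, and day 7 graft 5 lay among the controls. Cnn1 had the 26th highest change of all tested genes at day 7 against day 3 (4.09 ± 0.85, adjusted p = 0.015), and its change on log2(CPM + 1) was 2.05. Against control it rose by 1.96 ± 0.66 at day 7 (adjusted p = 0.0194). At day 3 against control its change of -2.13 ± 0.95 was not called (adjusted p = 0.0656), and it was called without day 7 graft 2 or 5 (adjusted p = 0.0193 and 0.00476). Without the library of each group that was highest in skeletal muscle markers, its changes at day 7 were 4.095 against day 3 (adjusted p = 0.0739) and 1.76 against control (adjusted p = 0.0815), and both calls ended.

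Actg2, the gamma actin of the gut wall, encodes a protein nearly identical to that of Acta2. Where the transcripts are alike, estimated counts could pass between the genes. Actg2 (ENSMUSG00000059430) lies on the minus strand at chr6:83512905-83536265. It was at 16.2, 17.9, 11.3, 8.27 and 1.73 CPM in the day 7 grafts and at 1.08, 0.356, 0.295, 0.468 and 0.647 CPM in the day 3 grafts. Controls had 1.10, 0.638, 1.94, 0.337 and 2.37 CPM. Its counts came to 1.01 to 3.49% of those of Acta2 in the day 7 grafts, 0.314 to 0.997% in the day 3 grafts and 0.957 to 4.4% in the controls. Day 3 grafts had the lowest shares, with control 4 inside their range, and whether reads were assigned to the right actin was not tested. The change was 4.06 ± 0.88 at day 7 against day 3 (adjusted p = 0.0193), 3.08 ± 0.80 at day 7 against control (adjusted p = 0.00408) and -0.98 ± 1.09 at day 3 against control (adjusted p = 0.449). The call against day 3 ended without day 3 graft 3 or 4 (adjusted p = 0.0518 and 0.0527).

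Myh11, the heavy chain of smooth muscle myosin, followed another course. Myh11 (ENSMUSG00000018830) lies on the minus strand at chr16:14194535-14291372. Day 7 grafts 1 to 5 had 20.6, 27.5, 19.4, 17.7 and 3.88 CPM. The day 3 grafts had 1.52, 5.76, 2.36, 1.404 and 1.07 CPM, and the controls had 33.4, 24.9, 31.6, 18.4 and 23.2 CPM. Day 3 grafts were all below the controls, and day 7 grafts 1 to 4 were all above the day 3 grafts and overlapped the controls. The change was -3.67 ± 0.63 at day 3 against control (adjusted p = 0.000185) and 2.91 ± 0.64 at day 7 against day 3 (adjusted p = 0.0202), a call that ended without day 3 graft 3, 4 or 5 (adjusted p = 0.0505, 0.0591 and 0.0573). Against control it was at -0.76 ± 0.41 at day 7 and not called (adjusted p = 0.124), and at -0.28 without day 7 graft 5 (adjusted p = 0.327).

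**Figure D2:**
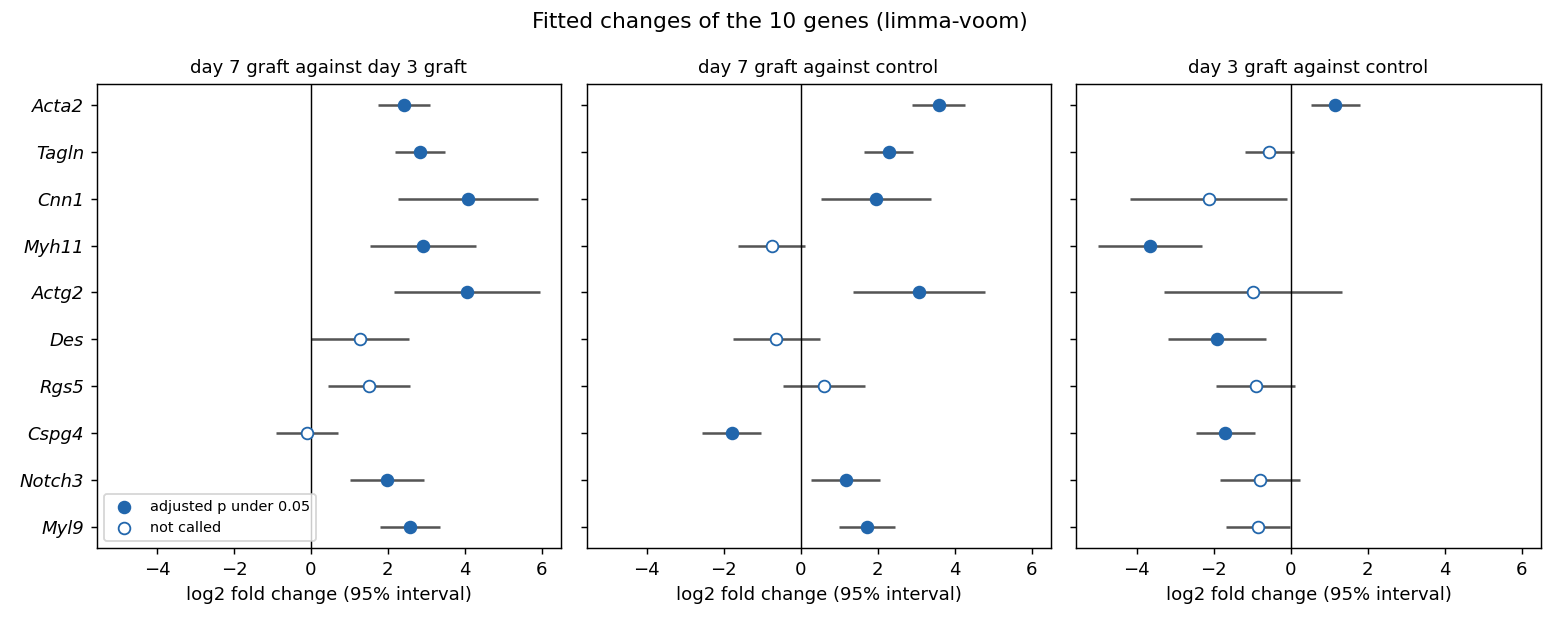
Fitted log2 fold change of each gene with its 95% interval in the 3 comparisons. In the comparison of day 7 with day 3 the intervals of Acta2, Tagln, Cnn1, Myh11, Actg2, Notch3 and Myl9 lie above 0 and carry a call, and Cspg4 is at -0.10 with an interval from -0.90 to 0.70.

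Des encodes desmin, an intermediate filament of muscle that skeletal fibres also express. Des (ENSMUSG00000026208) lies on the plus strand at chr1:75360329-75368579. It was at 42.5, 31.5, 54.2, 30.2 and 9.59 CPM in the day 7 grafts and at 56.9, 11.5, 7.21, 5.91 and 10.01 CPM in the day 3 grafts. Controls had 33.6, 103, 42.5, 25.5 and 55.2 CPM. Day 3 graft 1 lay among the controls, and the other 4 day 3 grafts lay below them all. Des fell by 1.91 on the log2 scale at day 3 against control (SE 0.59, adjusted p = 0.0122), and it was not called at day 7 against control (-0.64 ± 0.53, adjusted p = 0.306) or day 3 (1.27 ± 0.60, adjusted p = 0.252).

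Skeletal muscle markers differed widely between libraries of a group. The score of 12 such markers, the mean of log2(CPM + 1), was 3.07, 0.988, 3.82, 1.15 and 0.372 in day 7 grafts 1 to 5, 3.83, 0.450, 0.494, 0.489 and 0.771 in the day 3 grafts, and 1.43, 6.83, 3.14, 3.79 and 4.24 in the controls. The libraries highest in these markers were day 7 graft 3, day 3 graft 1 and control 2, which were also the libraries highest in Des within their groups. Below these the orders agreed in part. Controls 5, 3 and 1 followed in this order in both, as did day 3 grafts 5, 3 and 4. Day 7 graft 1 was next and day 7 graft 5 last in both. Day 7 grafts 2 and 4 were swapped, at 0.988 and 1.15 in the markers and 31.5 and 30.2 CPM in Des. Control 4 was the third highest control in the markers and the lowest in Des. Day 3 graft 2 was the lowest of its group in the markers and the second highest in Des. Whether skeletal fibres account for the level of Des was not tested. The summed level of the markers was 4.44 to 293.9 CPM in the day 7 grafts, 5.44 to 325.9 CPM in the day 3 grafts and 25.5 to 3559 CPM in the controls. Of 11 tested markers 2 fell at day 3 against control and 1 at day 7 against control, with medians of -4.34 and -2.45. In these comparisons 30.2% and 28.4% of all tested genes were called lower. None was called between the graft groups, with a median of 1.56. Without the 3 libraries highest in the markers Des was at -2.17 at day 3 against control (adjusted p = 0.00288). It was at -0.60 at day 7 against control (adjusted p = 0.228) and 1.57 at day 7 against day 3 (adjusted p = 0.129). The controls left still scored 1.43 to 4.24 in the markers, and the day 3 grafts left 0.450 to 0.771. The omission therefore does not remove the difference in skeletal muscle markers. These values cannot separate Des from it. With day 3 graft 1 and day 7 graft 5 left out, a choice made after seeing the data, its change at day 7 against day 3 was 2.20 and called (adjusted p = 0.0081).

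**Figure D3:**
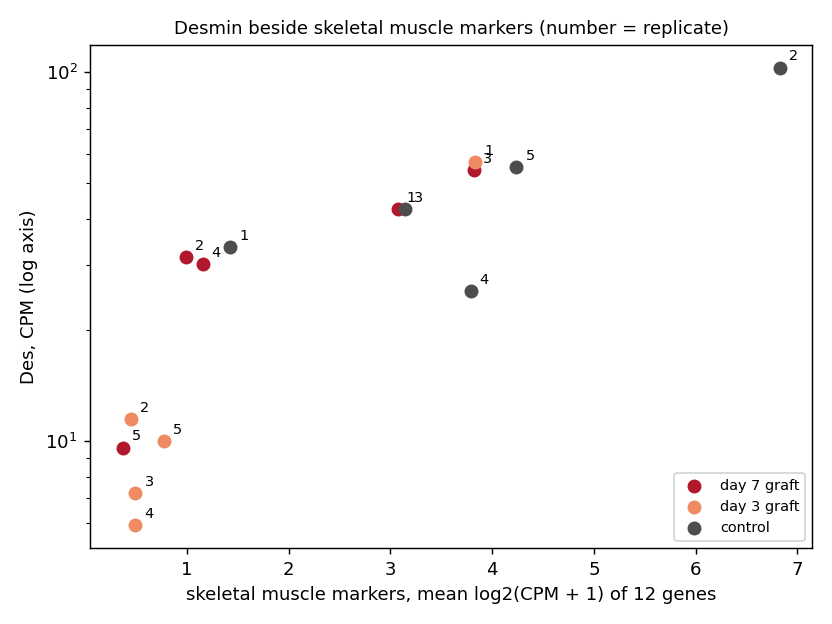
Des in CPM on a log axis against the skeletal muscle score, the mean log2(CPM + 1) of 12 markers, for the 15 libraries, with numbers for the replicate. Control 2, at a score of 6.83 and 103 CPM, is highest on both axes, and day 3 graft 1 stands apart from the other day 3 grafts at 3.83 and 56.9 CPM.

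Among the pericyte genes, Rgs5, a brake on G protein signalling in pericytes, varied widely between grafts. Rgs5 (ENSMUSG00000026678) lies on the plus strand at chr1:169655501-169695813. It was at 191, 319, 196, 304 and 49.0 CPM in day 7 grafts 1 to 5 and at 34.5, 182, 35.1, 57.4 and 76.8 CPM in the day 3 grafts. Controls had 96.3, 109, 111, 171 and 113 CPM. Day 7 grafts 1 to 4 lay above all other libraries, and day 3 graft 2 lay above all controls. No comparison was called with all libraries in the fit, at 1.51 ± 0.50 for day 7 against day 3 (adjusted p = 0.0985), 0.60 ± 0.50 for day 7 against control (adjusted p = 0.313) and -0.91 ± 0.48 for day 3 against control (adjusted p = 0.116). Without day 7 graft 5 these were 1.98 (adjusted p = 0.0108), 1.07 (adjusted p = 0.0428) and -0.91 (adjusted p = 0.0483), all called, and without day 3 graft 2 the change was 1.89 at day 7 against day 3 (adjusted p = 0.031) and -1.29 at day 3 against control (adjusted p = 0.0184).

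Cspg4, the membrane proteoglycan of pericytes and of some progenitor cells, was the only member lower in both graft groups than in control tissue under a call. Cspg4 (ENSMUSG00000032911) lies on the plus strand at chr9:56865033-56899870. It was at 21.0, 20.0, 26.6, 34.8 and 9.25 CPM in the day 7 grafts and at 13.7, 41.8, 28.1, 13.6 and 22.4 CPM in the day 3 grafts. Controls had 101, 86.0, 54.8, 82.2 and 45.2 CPM. In CPM no graft reached the level of any control, and the graft groups overlapped. In the deposited values per transcript length (TPM), day 3 graft 2 was at 14.43 and control 5 at 13.13. The change was -1.80 ± 0.36 at day 7 against control (adjusted p = 0.000578) and -1.70 ± 0.36 at day 3 against control (adjusted p = 0.000922). Between the graft groups it was -0.10 ± 0.37 (adjusted p = 0.921, 95% interval -0.90 to 0.70), which does not show equal levels.

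Notch3, the Notch receptor of arterial smooth muscle and pericytes, was at 37.7, 54.2, 46.6, 76.2 and 11.96 CPM in the day 7 grafts and at 9.01, 18.4, 8.94, 10.2 and 5.82 CPM in the day 3 grafts. Controls had 18.4, 18.5, 19.8, 19.0 and 11.7 CPM. Notch3 (ENSMUSG00000038146) lies on the minus strand at chr17:32120820-32166852. Day 7 grafts 1 to 4 were above all other libraries, and day 7 graft 5 lay within the range of both other groups. The change was 1.97 ± 0.45 at day 7 against day 3 (adjusted p = 0.0239), 1.16 ± 0.42 at day 7 against control (adjusted p = 0.0266) and -0.80 ± 0.49 at day 3 against control (adjusted p = 0.166). The first call ended when any of day 3 grafts 3, 4 and 5 or day 7 grafts 1 to 4 was left out (adjusted p = 0.0505 to 0.0622), and the second without control 5 or day 7 graft 2, 3 or 4 (adjusted p = 0.0532 to 0.0649). Without day 7 graft 5 they were 2.40 (adjusted p = 0.000165) and 1.59 (adjusted p = 0.000157), and day 3 against control was also called (-0.81, adjusted p = 0.0255).

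Counts of members whose samples did not overlap between groups give the same data without the fit, though in CPM, which depend on the scaling. Between the graft groups 5 members lay wholly higher at day 7 than at day 3 and 0 wholly lower. Of all tested genes 4.56% lay wholly higher and 3.33% wholly lower. Against control 2 members lay higher at day 7 and 1 lower, where 22.8% and 19.7% of all genes did. At day 3 against control 1 lay higher and 4 lower, where 20.6% and 19.8% of all genes did. Of those lower in CPM, Cnn1, Cspg4 and Myl9 overlapped the controls in the deposited TPM. Their highest day 3 values were 0.94, 14.43 and 25.42 TPM, and their lowest control values were 0.5, 13.13 and 22.42 TPM.

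Levels per gene length, in the deposited TPM, a unit that divides counts by transcript length, show how the order among the 10 genes differed between groups. In day 7 grafts Acta2 led at 484.9 ± 199 TPM, ahead of Tagln at 204 ± 76.7, Myl9 at 141 ± 57.3, Rgs5 at 84.4 ± 45.4 and Des at 19.0 ± 9.76 TPM (SD, n = 5), and Myh11 was last at 4.29 ± 2.14 TPM. In day 3 grafts Acta2 led at 74.0 ± 17.0 TPM, and Rgs5, Tagln, Myl9 and Des followed at 27.9 ± 22.1, 25.5 ± 7.54, 19.2 ± 5.71 and 9.81 ± 11.6 TPM. In controls Rgs5 led at 34.4 ± 4.31 TPM, and Tagln, Acta2, Myl9 and Des followed at 31.3 ± 11.97, 28.2 ± 12.2, 26.4 ± 3.89 and 23.0 ± 13.8 TPM. Over the whole order of 10 genes, the gap between neighbours exceeded the larger of their SDs for 3 pairs in the day 7 grafts, which were Acta2 over Tagln, Rgs5 over Des, and Cspg4 at 7.76 over Myh11. It did so for 3 pairs in the day 3 grafts, which were Acta2 over Rgs5, Cspg4 over Notch3, and Notch3 over Actg2, and for 2 pairs in the controls, which were Cspg4 at 19.9 over Myh11 at 4.93, and Myh11 over Notch3 at 2.54 TPM. The other neighbours differed by less than the larger of their SDs. Acta2 made up 49.6% of the summed TPM of the 10 genes in day 7 grafts, 44.0% in day 3 grafts and 16.3% in controls.

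Ratios within a library, chosen after their values were seen and given with no test, set smooth muscle actin beside smooth muscle myosin. Acta2 over Myh11 in TPM was 131, 76.8, 131, 117 and 178 in day 7 grafts 1 to 5, 275, 40.5, 150.1, 282 and 265 in the day 3 grafts and 3.49, 4.33, 5.84, 7.49 and 8.98 in the controls. Every graft of either time lay above every control. Day 7 graft 5, which was low in both genes, had the highest ratio of its group. Acta2 over Tagln was 1.79 to 2.88 in the day 7 grafts, 1.62 to 4.61 in the day 3 grafts and 0.777 to 1.06 in the controls. Rgs5 over Cspg4 was 5.85 to 17.7 in the day 7 grafts, 1.42 to 4.69 in the day 3 grafts and 1.04 to 2.76 in the controls, and Notch3 over Cspg4 was 0.704 to 1.47, 0.133 to 0.41 and 0.0982 to 0.19. For both ratios to Cspg4 the day 7 grafts lay above all other libraries, day 7 graft 5 included, and the day 3 grafts overlapped the controls.

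**Figure D4:**
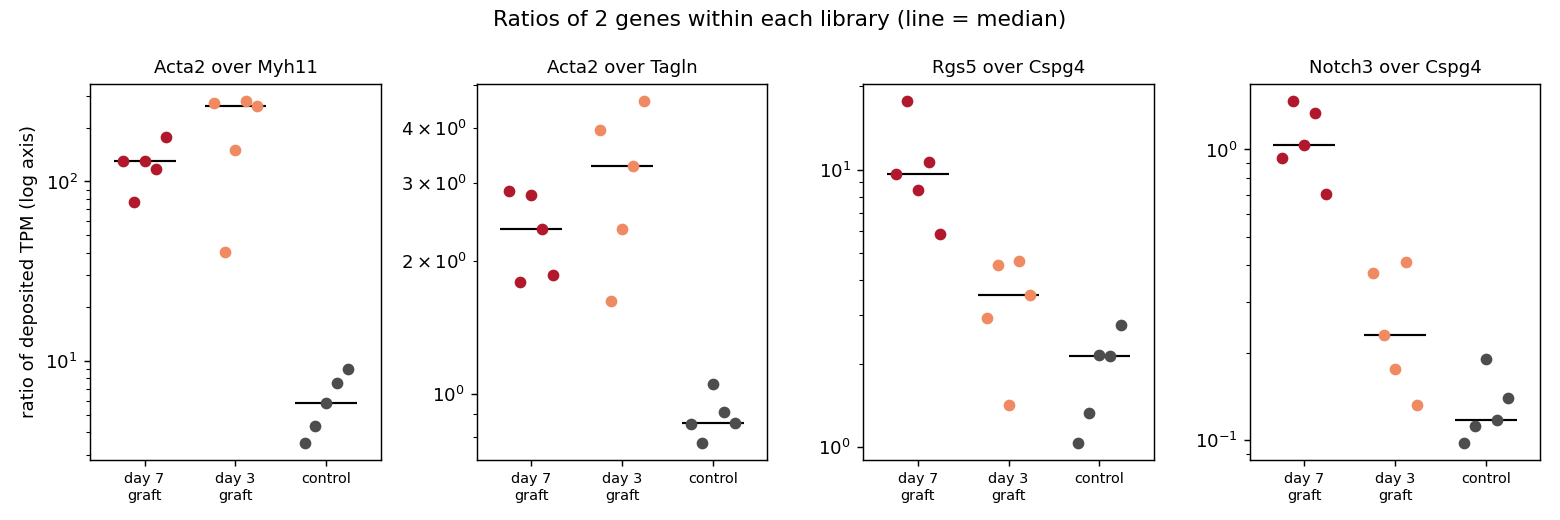
Ratios of the deposited TPM of 2 genes within each library on log axes, for day 7 grafts, day 3 grafts and controls from left to right, with a line at the group's median. Acta2 over Myh11 is 76.8 to 178 in day 7 grafts, 40.5 to 282 in day 3 grafts and 3.49 to 8.98 in controls, with no overlap between grafts and controls.

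Of 13 tested genes of 14 in the list of other contractile genes, 4 rose and 0 fell at day 7 against day 3, 7 rose and 2 fell at day 7 against control, and 3 rose and 2 fell at day 3 against control, with medians of 0.95, 1.32 and -0.20. The shares of all tested genes, for this list and those after it, were 3.18% higher and 1.71% lower, 32.3% and 28.4%, and 30.1% and 30.2% in the same comparisons. The counts of 3 and 2 at day 3 against control are no larger than that background. Without day 7 graft 5, 6 rose at day 7 against day 3, in a fit that called 6.23% of all tested genes higher and 3.12% lower. The 4 that rose at day 7 against day 3 were Kcnmb1, a subunit of the smooth muscle potassium channel (3.16 ± 0.69, adjusted p = 0.0193), the actin nucleator Lmod1 (2.18 ± 0.55, adjusted p = 0.0367), Ppp1r14a, an inhibitor of myosin phosphatase (1.99 ± 0.50, adjusted p = 0.0351), and Mylk, the kinase of the myosin light chain (1.76 ± 0.39, adjusted p = 0.0199). Kcnmb1 and Ppp1r14a were rare, at 2.40 and 0.745 CPM in day 7 grafts and 0.234 and 0.245 CPM in day 3 grafts. Mylk averaged 52.4 CPM in day 7 grafts, 14.1 CPM in day 3 grafts and 42.7 CPM in controls, and it fell by 1.65 at day 3 against control (adjusted p = 0.00215). Cald1 and Smtn, actin-binding proteins whose genes are also active outside smooth muscle, rose at day 3 against control (1.71, adjusted p = 4.97e-06, and 1.90, adjusted p = 2.8e-06). Synpo2 and Synm, which encode proteins of the actin and intermediate filaments, fell at day 7 against control (-1.04, adjusted p = 0.0231, and -0.97, adjusted p = 0.0175), and Synm also fell at day 3 against control (-1.15, adjusted p = 0.00814). Pln, an inhibitor of the calcium pump of muscle, was under the filter. Control 2, the highest control in skeletal muscle markers, had a summed level of 908 CPM in this list, against 359 to 521 CPM in the other controls. The part of skeletal muscle in the changes of this list against control was not tested.

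Of 11 tested genes of 12 in the MRTF and SRF axis, 1 rose and 0 fell at day 7 against day 3, 9 rose and 0 fell at day 7 against control, and 9 rose and 0 fell at day 3 against control, with medians of 0.17, 1.36 and 1.41. At day 7 against day 3, 2 rose without control 4, control 5 or day 7 graft 5, and 1 fell without control 4. In those fits 5.74%, 3.65% and 6.23% of all tested genes were called higher and 3.9%, 2.15% and 3.12% lower. Ccn2, a secreted matrix protein, averaged 138 CPM in day 7 grafts, 123 CPM in day 3 grafts and 8.12 CPM in controls, where control 5 had 23.4 CPM and the others 2.38 to 6.02 CPM. Fhl2, an adaptor of SRF, was the gene that rose at day 7 against day 3 (0.79 ± 0.21, adjusted p = 0.0424), at 22.5 CPM in day 7 grafts, 12.9 CPM in day 3 grafts and 1.43 CPM in controls. Srf itself was at 20.2, 25.1 and 21.3 CPM in day 7 grafts, day 3 grafts and controls and was not called in any comparison, nor was Mrtfa, a coactivator of SRF. The related coactivator Mrtfb was at 60.2 CPM in day 7 grafts, 46.0 CPM in day 3 grafts and 35.7 CPM in controls. It rose against control at day 7 (0.76 ± 0.11, adjusted p = 4.01e-05) and at day 3 (0.38 ± 0.11, adjusted p = 0.00856), and no graft of either time overlapped the controls. Myocd, the smooth muscle coactivator of SRF, was under the filter at 0.323, 0.0222 and 0.0806 CPM.

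In the list of further pericyte genes, 1 of 10 rose and 0 fell at day 7 against day 3, 5 rose and 2 fell at day 7 against control, and 3 rose and 2 fell at day 3 against control, with medians of -0.10, 0.98 and 0.59. Without day 7 graft 5, 2 rose and 1 fell at day 7 against day 3, where 6.23% of all tested genes were called higher and 3.12% lower. Pdgfrb, the receptor of the growth factor that recruits pericytes and a gene of fibroblasts too, was the one that rose at day 7 against day 3 (1.66 ± 0.32, adjusted p = 0.0111), with 252 ± 89.9 CPM in day 7 grafts, 78.1 ± 26.2 CPM in day 3 grafts and 50.8 CPM in controls. The potassium channel genes Kcnj8 and Abcc9, a pair of pericyte genes, were at 21.2 and 57.3 CPM in day 7 grafts, 25.2 and 59.6 CPM in day 3 grafts and 12.8 and 50.0 CPM in controls and were not called in any comparison. Ndufa4l2 rose in both graft groups against control (4.48, adjusted p = 6.41e-06, at day 7 and 5.46, adjusted p = 1.37e-06, at day 3), and it is also known as a gene induced by low oxygen. Vtn, which encodes vitronectin, fell in both (-2.50, adjusted p = 4.82e-05, at day 7 and -2.20, adjusted p = 0.000118, at day 3).

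Of 9 ligands and targets of Notch, 1 rose and 0 fell at day 7 against day 3, 6 rose and 1 fell at day 7 against control, and 4 rose and 1 fell at day 3 against control, with medians of -0.05, 0.75 and 0.34. Heyl, a target of Notch in vessel walls, was the gene that rose at day 7 against day 3 (2.695 ± 0.50, adjusted p = 0.0091), at 18.1 ± 8.60 CPM in day 7 grafts, 2.66 ± 1.31 CPM in day 3 grafts and 4.89 CPM in controls. Its order of groups was that of Notch3. Dll4, an endothelial ligand, rose against control at day 7 (1.89, adjusted p = 0.00235) and day 3 (2.49, adjusted p = 0.000279), and Jag1, a ligand that also acts between mural cells, rose at 0.75 (adjusted p = 0.00738) and 1.00 (adjusted p = 0.00108). Hey2, another target in arteries, fell by 2.71 at day 3 against control (adjusted p = 0.00102). It was a rare transcript, at 0.244 CPM in day 3 grafts and 1.56 ± 1.07 CPM in controls (SD).

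Genes of activated fibroblasts and matrix, of which 12 of 12 were tested, had 3 higher and 0 lower at day 7 against day 3, 12 higher and 0 lower at day 7 against control, and 11 higher and 0 lower at day 3 against control, with medians of 0.65, 4.52 and 3.41. The adhesion molecule Cdh11 averaged 124 CPM in day 7 grafts, 13.2 CPM in day 3 grafts and 12.8 CPM in controls, and rose at day 7 against day 3 (3.11 ± 0.42, adjusted p = 0.00142). Lrrc15, a gene of myofibroblasts induced by TGF-beta, was at 156 to 386 CPM in day 7 grafts and 47.2 to 121 CPM in day 3 grafts, and at 9.33 CPM in control 5 against 0.116 to 0.576 CPM in the other controls. Fap, a fibroblast protease, averaged 58.3 CPM in day 7 grafts, 31.5 CPM in day 3 grafts and 17.7 CPM in controls. Both rose at day 7 against day 3 (2.11 ± 0.39, adjusted p = 0.00873, and 0.91 ± 0.23, adjusted p = 0.0357). Of the members, Tagln, Myl9, Cnn1, Actg2 and Notch3 were called higher against control at day 7 only, and Acta2 at both times. Of the 12 genes of this list, 11 were called higher at both times. Control 5 was the highest control in this list, with a score of 6.95 against 4.32 to 5.00, and in macrophage markers, with 7.46 against 5.43 to 6.35. Without control 5 the list had 5 higher at day 7 against day 3, 12 at day 7 against control and 11 at day 3 against control, and 0 lower in each. In that fit 3.65%, 32.1% and 30.2% of all tested genes were called higher and 2.15%, 27.9% and 29.8% lower.

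**Figure D5:**
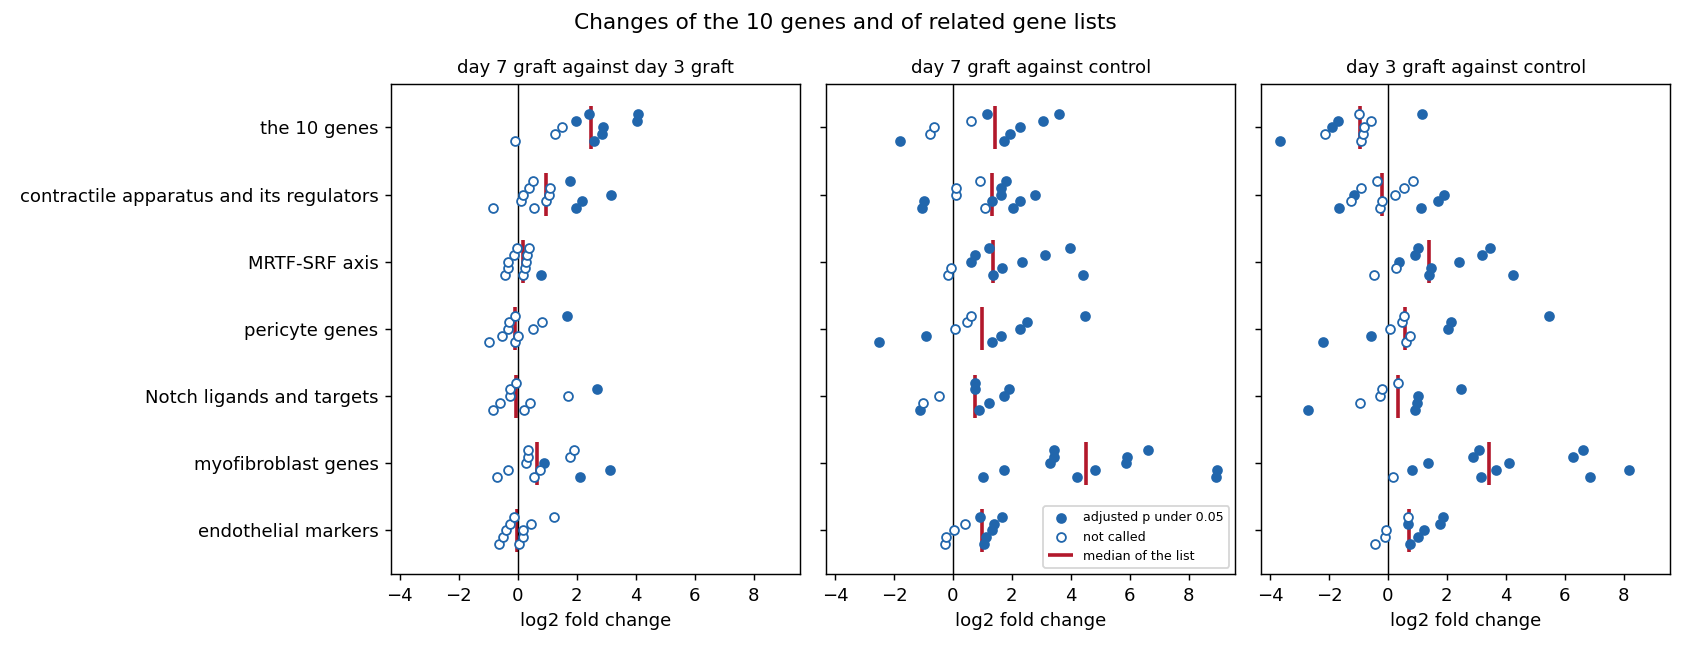
Fitted log2 fold changes of single genes in the members and the related gene lists, in the 3 comparisons. In the comparison of day 7 with day 3 the members have a median of 2.50, against 0.95 for the other contractile genes, 0.17 for the MRTF and SRF axis, -0.10 for pericyte genes, -0.05 for Notch genes and 0.65 for myofibroblast genes.

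Markers of other cells moved beside these results, and their part in them was not tested. Endothelial markers had 6 of 10 genes higher and 0 lower in each comparison with control and 0 called between the graft groups, with summed levels of 726 to 1395 CPM in day 7 grafts, 525 to 1764 CPM in day 3 grafts and 530.4 to 725.5 CPM in controls. Day 3 graft 2, the highest day 3 library in Rgs5, Cspg4, Notch3 and Myh11, was also the highest of its group in endothelial markers (score 7.02 against 5.22 to 6.14) and adipocyte markers (8.08 against 6.24 to 7.66). Day 7 graft 5 was the lowest of its group in endothelial markers (score 5.62 against 5.88 to 6.51) and the highest in macrophage markers (9.49 against 8.81 to 9.19) and lymph node markers (1.96 against 0.719 to 1.01). Of 8 macrophage markers all 8 rose, and of 10 adipocyte markers all 10 fell, in both graft groups against control. All 8 lymph node markers also fell in both, with medians of -6.70 at day 7 and -8.00 at day 3. Their summed levels were 6.28 to 139.7 CPM in day 7 grafts, 9.45 to 50.55 CPM in day 3 grafts, and 145.6 CPM in control 4 and 1428 to 2011 CPM in the other controls.

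Epithelia hold contractile cells too. Of 9 markers of mammary and skin epithelium 3 were tested, of which 2 fell in both graft groups against control, with summed levels of 2.17 to 27.8 CPM in day 7 grafts, 1.81 to 4.48 CPM in day 3 grafts and 10.4 to 122.9 CPM in controls. Single libraries carried the highest sums, which were 27.8 CPM in day 7 graft 5 against 2.17 to 5.57 CPM in the other day 7 grafts, and 122.9 CPM in control 1 against 10.4 to 28.6 CPM in the other controls. The epithelial keratin Krt14 was at 4.18 CPM in day 7 graft 5 and at most 1.23 CPM in the other day 7 grafts, at most 0.036 CPM in the day 3 grafts, and at 33.7 CPM in control 1 and at most 0.142 CPM in the other controls. The mean of Oxtr, the oxytocin receptor, was 0.253 CPM in day 7 grafts, 0.596 CPM in day 3 grafts and 10.8 CPM in controls. Which cells Oxtr came from was not tested. Of 7 epididymis markers 6 were at 0 in every library, and the summed level of the list, which then rests on Rnase10, reached at most 1.301 CPM. All 6 Schwann cell markers fell in both graft groups against control, with summed levels of 31.0 to 43.8 CPM in day 7 grafts, 37.1 to 60.6 CPM in day 3 grafts and 121 to 200 CPM in controls.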

How the data were processed

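The authors deposited a matrix of 55471 genes that holds 3 measures for each of 15 samples. The 30 columns of estimated counts and TPM were mapped to samples by their sample numbers, and the 15 RPKM columns were not used. The deposited estimated counts are whole numbers per gene without scaling, per the file headers. The deposited TPM values, scaled for gene length by the authors, gave levels between genes, ratios and an alternative fit. RSEM 1.3.1, STAR 2.7.1a, cutadapt 2.8 and the build mm10 are named in the submitters' processing notes with no role. No annotation release is given in the sources used here. Extraction used Trizol and RNeasy columns, and RNA was sequenced in pairs of 151 bp with a stranded mRNA kit, per the labels' protocols.

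Genes entered the tests if 5 samples or more reached 0.3894 CPM, which is 10 counts in a library of median size, and if all samples together reached 15 counts. Totals of 17.1 to 32 M received TMM factors, from trimmed means of log ratios (trims of 30% and 5%, range 0.746 to 1.14), and voom in limma 3.58.1 (R 4.3.3) fitted 3 group means over 15 samples, and p-values were adjusted over the whole table by Benjamini-Hochberg. The count columns carry commas as digit marks, which were removed on reading, and were entered under another unit. No count model was run. The lowest chi-square per gene between samples of a group was 20.59, so no library was counted as a duplicate. The fit was tested on simulated counts. Scores are means of log2(CPM + 1). Data were read with the R package data.table (version 1.17.8) and drawn with matplotlib 3.10.9 in Python 3.11.15.

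The members, the 13 lists of 127 genes and the alternatives were chosen with earlier results of these data known. All members are named. Other genes were named from the lists, as up to 3 called genes with the largest changes in each direction per list and comparison, except in the contractile, MRTF and SRF, pericyte and Notch lists, where any gene could be named. Krt14, Rnase10 and the predicted and overlapping genes beside Tagln were named after their values were seen. List counts without control 4, control 5 or day 7 graft 5 were alternatives added after seeing the data. Genes alike in pattern were the 5 with a mean of at least 10 CPM and the highest correlation with a score.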

Additional observations from a re-analysis of the deposited data

Results flagged for a closer look

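Of 30 sets of 5 libraries, 1 per gene and group, 8 held a library whose gap to its neighbour, divided by the set's range, exceeded Dixon's critical value of 0.71, which chance gives in about 1 of 20 sets. On log2(CPM + 1) the ratio was 0.825 for Acta2, 0.738 for Tagln, 0.761 for Myh11, 0.726 for Rgs5 and 0.921 for Myl9, all with day 7 graft 5 lowest. For Des it was 0.723 with day 3 graft 1 highest, for Rgs5 0.72 with control 4 highest, and for Notch3 0.852 with control 5 lowest.

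The changes against control differed between day 7 and day 3, by the test of day 7 against day 3 itself, for 7 genes. The difference in log2 change, day 7 minus day 3, was 2.42 for Acta2, 2.85 for Tagln, 4.09 for Cnn1, 2.91 for Myh11, 4.06 for Actg2, 1.97 for Notch3 and 2.57 for Myl9.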

How the results depend on the processing

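No called change of a member reversed under the 27 alternatives. Calls held under all 27 for Acta2 in the 3 comparisons, for Tagln and Myl9 at day 7 against day 3 and against control, for Actg2 at day 7 against control, for Cspg4 in both comparisons with control, and for Myh11 and Des at day 3 against control. At day 3 against control the 4 called members became 7 with only the 2 groups compared in the fit, 7 with the replicate number as a block and 8 with sample quality weights, 4 to 8 with a library left out and 8 without day 7 graft 5. The share of all genes called, 60.3% as reported, was 57.2%, 60.6%, 71.3% and, without day 7 graft 5, 61.8%. At day 7 against control the 7 called became 6 to 8 with a library left out and 9 with quality weights (60.7% of all genes called as reported, 73.6% with weights). At day 7 against day 3 the 7 called became 9 with quality weights, which added Des (adjusted p = 0.0379) and Rgs5 (adjusted p = 0.00127), 3 without the library highest in skeletal muscle markers in each group, 4 without day 3 graft 3 or 4, and 4 to 8 over the omissions of 1 library. The share of all genes called, 4.88% as reported, was 22.8% with weights, 1.18% with the skeletal omission, and 2.25% and 2.2% without day 3 graft 3 or 4. The skeletal omission, which leaves 4 libraries a group, ended the calls of Cnn1 (4.095, adjusted p = 0.0739), Actg2 (4.21, 0.0819), Myh11 (2.71, 0.104) and Notch3 (1.87, 0.117) there, where the changes with all libraries were 4.085, 4.055, 2.91 and 1.97. It also ended those of Cnn1 (1.76, 0.0815) and Notch3 (1.11, 0.0944) at day 7 against control. The cause of these changes was not tested. The median change of the members at day 3 against control was -0.43 on log2(TPM + 1), where the median of all genes was 0.22 and 68.0% of calls were higher, against 50.0% on counts. At day 7 against control that scale put the median of all genes at 0.33 and 74.1% of calls higher, against 53.2%. Medians of the members with a library left out were -1.17 to -0.88 at day 3 against control, 1.28 to 1.84 at day 7 against control and 2.38 to 2.85 at day 7 against day 3. Deviations of libraries with the same number had correlations of -0.231 to 0.375. They were positive in every pair of groups for number 3 (0.154, 0.23 and 0.307) and negative in every pair for number 4 (-0.164, -0.0634 and -0.0137). Libraries with different numbers were not compared in this way, so these values do not decide whether numbers are pairs. Numbers were not taken as pairs in the fit as reported. Low counts limit Cnn1 and Actg2, whose changes at day 7 against day 3 were 2.05 and 2.696 on log2(CPM + 1).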

Other observations

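Genes alike in pattern to the members were looked for over the 15 libraries, after each group's mean was removed, among 10040 tested genes with at least 10 CPM, and are given as a description with no test. The libraries share depth and tissue makeup, and day 7 graft 5 is far from the rest. For the mean of Acta2, Tagln, Cnn1, Myh11, Actg2 and Myl9 the highest Pearson correlations were those of Fnbp1l (0.936), Erg28 (0.892), Col11a1 (0.883), Mylk (0.878) and Ints13 (0.876). Without day 7 grafts 5 and 2 they were 0.719, 0.324, 0.604, 0.509 and 0.734, and Spearman correlations over all 15 libraries were 0.782, 0.529, 0.693, 0.696 and 0.8. The group means removed were still those of all 15 libraries, so the values without these grafts are not free of them. Mylk encodes the kinase that phosphorylates the light chain of smooth muscle myosin, and Col11a1 a fibrillar collagen chain.

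For the mean of Rgs5, Cspg4 and Notch3 they were Zmym3 (0.946), Meox2 (0.928), Fat4 (0.927), Sox18 (0.917) and Sept4 (0.914). Without day 7 graft 5 and day 3 graft 2 they were 0.852, 0.781, 0.824, 0.833 and 0.861, and Spearman correlations were 0.961, 0.836, 0.943, 0.836 and 0.911. Here too the group means removed included both omitted grafts, so the values without them are not free of them. Sox18 encodes a transcription factor of endothelial cells and Meox2 one of vessel walls. Between members the correlation ranged from 0.0622 for Acta2 with Cspg4 to 0.844 for Myh11 with Notch3.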
